A study of Mus musculus with 9 samples.

Results

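Genes that set how much plasmin and thrombin activity a cell allows at its surface are described here across cultured mouse heart cells. The set holds 10, picked out of the table by gene symbol: the plasminogen activators Plau and Plat, the urokinase receptor Plaur, the serine protease inhibitors Serpinb2 and Serpine2, tissue factor (F3), the tissue factor pathway inhibitors Tfpi and Tfpi2, thrombomodulin (Thbd) and the thrombin receptor F2r. All 10 were found among the 54532 genes of the deposited table, and all 10 passed the filter on low counts in each comparison.

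The study sequenced RNA of cardiosphere-derived cells, which grow out of cultured heart tissue and float up as spheres, from the C57BL/6 mouse strain, with 3 libraries in each of 3 groups. The pECDC group holds primary cells (titles P0), taken per the methods from the epicardium of 6-week-old mice, whereas the labels name an explant culture of heart ventricle. The iECDC group holds the line made from them at passage 30 (titles P30), per the methods by a lentivirus that carries human telomerase (hTERT) and a puromycin selection, so it is 1 immortalized line. The SB431542 group (titles SBT) carries the same immortalization per the labels: it is iCDC at passage 30 after 3 days of SB431542, which blocks the type I receptor for TGF-β. The methods describe the sequenced cells treated with SB431542 as an epithelial clone from pECDCs, so the starting cells of this group are not settled, and a difference between clones and a difference made by the inhibitor cannot be told apart if that is so. No label says that libraries of a group came from separate cultures. The methods speak of biological replicates, but of fewer per condition than the 3 libraries here, while figure legends give n = 3. The p-values thus measure only the spread between these libraries, which may be technical.

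Plasminogen activators cut plasminogen into plasmin, which dissolves fibrin and loosens matrix. Urokinase (Plau) works mostly on the cell surface, held there by its receptor, while tissue-type activator (Plat) works mostly on fibrin, and serpins block both. Coagulation starts when tissue factor in the membrane binds factor VII; tissue factor pathway inhibitors stop that complex, and the thrombin that forms either signals through F2r or is captured by thrombomodulin, which turns it towards protein C.

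Library totals ranged from 16568306 to 23951392 counts, and the 10 genes together took from 0.1115% to 0.1918% of them. Levels are given as FPKM, fragments scaled to gene length and library size, as the authors deposited them. For the 10 genes this length equals all annotated exon bases together, such as 6241 for Plat and 2367 for Plau. The length of the transcript in use may be shorter, so orders and ratios between genes depend on this divisor. In pECDC replicate 1, for example, Plat had 1463 counts and Plau 1085, while Plau had the higher FPKM. Differences are log2 fold changes of counts with their standard error (SE) from edgeR's quasi-likelihood test, and a gene was called when its Benjamini-Hochberg adjusted p over all tested genes was under 0.05. Libraries stood apart within groups. Between libraries of a group, the chi-square of counts over genes divided by its degrees of freedom lay between 2.70 and 4.23 in pECDCs, but it was 30.8 and 24.9 for the pairs with iECDC replicate 3 against 4.61 for the other pair. In the SB431542 group it was 71.5 and 70.3 for the pairs with replicate 2 against 3.79 for the other pair. Results are therefore given with and without these libraries where they matter. All 8 marker genes of the mesenchymal list had counts in every library, with a summed level of 802 to 1464 FPKM, and 3 of them were higher in SB431542 libraries than in iECDCs: Dcn (log2 4.83, edgeR adjusted p = 0.00205), Ly6a (2.25, 0.00262) and Pdgfra (0.96, 0.0018). The endothelial list, which matters because thrombomodulin and Tfpi are best known from vessel lining, summed to 1.59 to 3.25 FPKM over 11 genes, and 5 of these (Pecam1, Tek, Tie1, Emcn and Cldn5) had at most 3 counts in every library. Single markers of other cell types differed between groups at low levels. Endothelial Sox17 had 179, 110 and 30 counts in iECDCs and 2, 24 and 5 in SB431542 libraries. In that comparison it passed the filter through iECDCs, so no test is given. Endothelial Egfl7 was not called against iECDCs (log2 0.46, edgeR adjusted p = 0.0878). Untested Erg had at most 2 counts in iECDCs and 7 to 11 in SB431542 libraries. Platelet Itga2b was higher in SB431542 libraries than in iECDCs (log2 1.63, edgeR adjusted p = 0.00988). Untested Ppbp of the platelet list had 17, 4 and 6 counts in iECDCs and 3, 8 and 0 in SB431542 libraries. Pf4, also untested, had 6, 5 and 4 against 8, 2 and 13, and Gp1bb and Gp9 had 0 in both groups. In SB431542 libraries macrophage Lyz2 was lower than in iECDCs (log2 -0.95, edgeR adjusted p = 0.0284) but higher than in pECDCs (log2 1.61, edgeR adjusted p = 0.00569). Macrophage Csf1r and Cd68 were not called against iECDCs (log2 0.22 and -0.31, edgeR adjusted p = 0.532 and 0.519). Against pECDCs, Cd68 was lower (log2 -0.86, edgeR adjusted p = 0.022), opposite to Lyz2, and Csf1r was not called (log2 0.16, edgeR adjusted p = 0.531). The epicardial list summed to 18.7 to 19.9 FPKM in pECDCs, 29.0 to 31.6 in iECDCs and 24.9 to 39.9 in SB431542 libraries, most of it Krt19. Upk3b of that list stood at 1.16 to 1.36 FPKM in SB431542 libraries and at most 0.166 in the others, and Wt1 at 0.107 to 0.396 and at most 0.0921. The part of these marker differences in the values of the 10 genes was not tested. In bulk RNA, fewer cells of a type and less RNA per cell cannot be told apart.

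**Figure D1:**
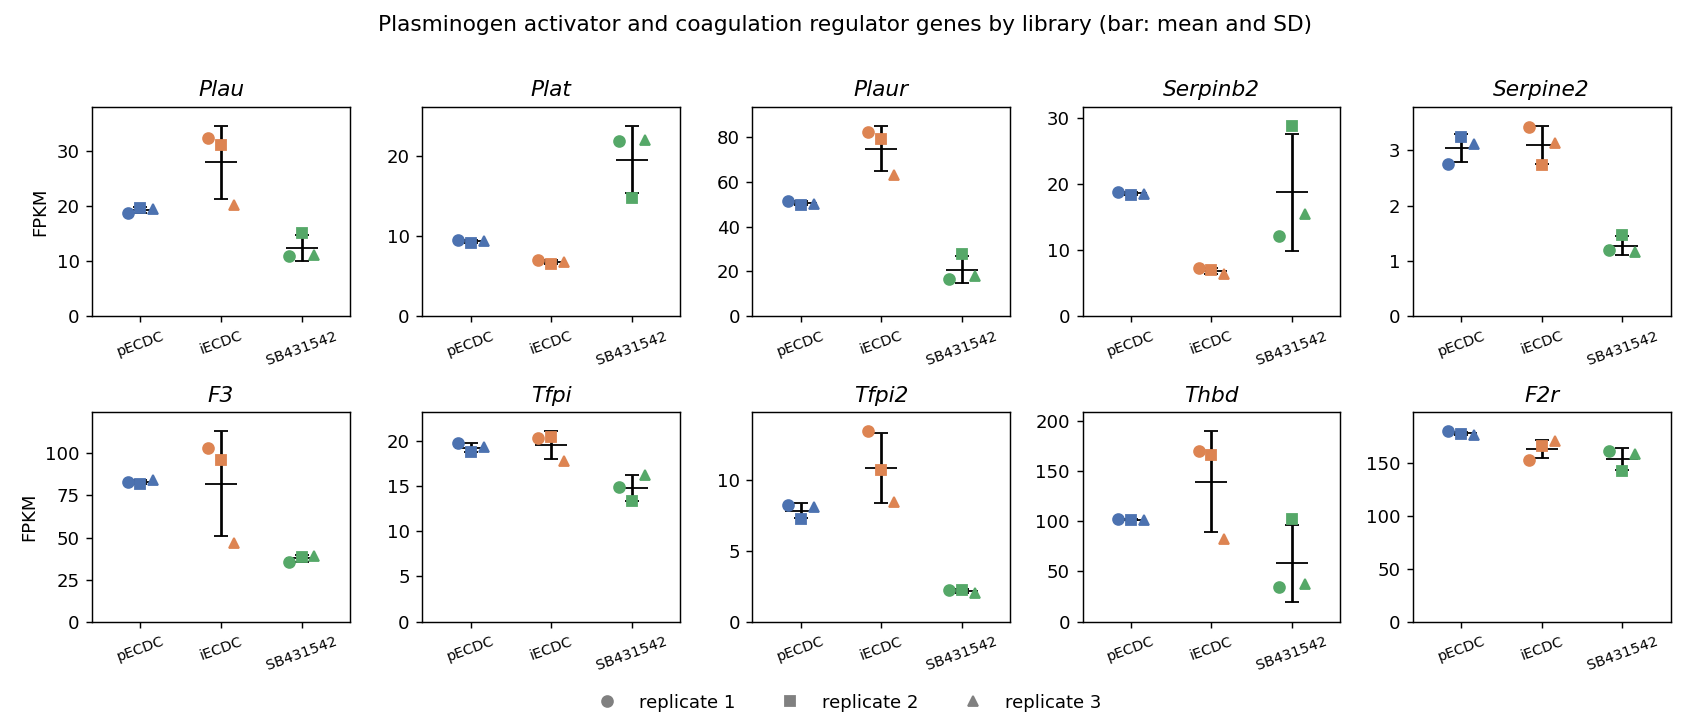
FPKM of each of the 10 genes (vertical axes, from 0) in the 9 libraries, by group; marker shapes are replicates 1 to 3, and bars are the mean with its SD (n = 3). In SB431542 libraries Plaur (16.7 to 27.8) and Tfpi2 (2.03 to 2.26) lie below every iECDC and pECDC library, Plat (14.7 to 22.1) lies above them, and F2r stays between 142 and 179 in all 9 libraries.

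Compared with pECDCs, iECDCs had more Plau and Plaur RNA and less Plat and Serpinb2 RNA, and no called difference in the other 6 genes. Of 13752 tested genes, 992 (7.21%) were higher and 1266 (9.21%) lower in iECDCs, 16.4% in all; of the 10 genes, 2 were higher and 2 lower. Their median log2 fold change was 0.01, with a median absolute change of 0.45 against 0.1737 over all tested genes. For 6 of the 10 the libraries of the 2 groups did not overlap on the CPM scale, as for 39.6% of all tested genes. Against iECDCs, SB431542 libraries had less RNA of 6 genes (Plau, Plaur, Serpine2, F3, Tfpi and Tfpi2) and more of 2 (Plat and Serpinb2). There 2164 (16%) of 13559 tested genes were higher and 1897 (14%) lower, 30% in all, and the median log2 fold change of the 10 genes was -1.14. Libraries did not overlap for 8 of the 10, and for 46.5% of all tested genes. Against pECDCs, SB431542 libraries had less RNA of Plau, Plaur, Serpine2, F3, Tfpi and Tfpi2 and more of Plat. There 2503 (17.9%) of 14015 tested genes were higher and 2378 (17%) lower, 34.8% in all, and the median log2 fold change of the 10 genes was -0.72. Again 8 of the 10 did not overlap, beside 51.5% of all tested genes. The 3 comparisons share libraries pairwise, so a gene high or low in one group by its libraries alone shifts 2 of them.

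**Figure D2:**
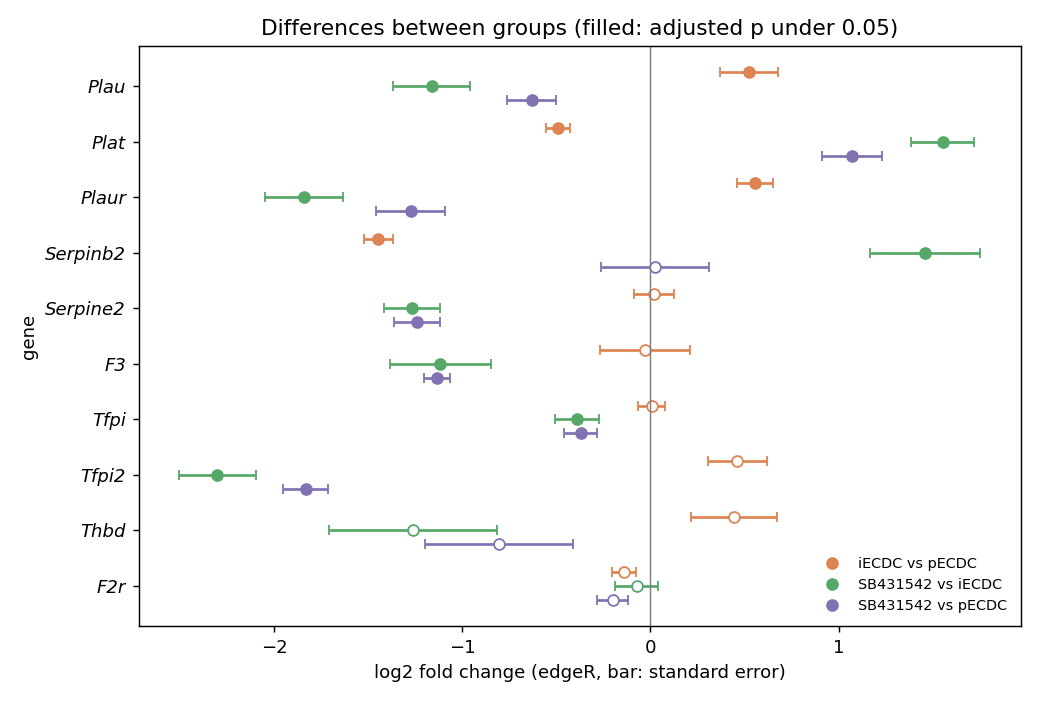
log2 fold change of counts (horizontal axis) for the 10 genes in the 3 comparisons, with the standard error as bar; filled points have an adjusted p under 0.05. Plat and Serpinb2 have the sign opposite to Plau and Plaur in all 3 comparisons, Serpinb2 with 0.02 and no call for SB431542 against pECDC, and Tfpi2 has the lowest point, -2.30 for SB431542 against iECDC.

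Plau encodes urokinase, the activator that acts at the cell surface (ENSMUSG00000021822, chr14:20836660-20843385 on GRCm38, plus strand). Its level was 18.7, 19.6 and 19.4 FPKM in pECDC libraries, 32.4, 31.0 and 20.2 in iECDC libraries and 10.8, 15.1 and 11.1 in SB431542 libraries. iECDC replicate 3 sat just above the pECDC libraries while the other iECDC libraries were far higher, and the SB431542 libraries lay below both other groups. Plau was 1.44-fold higher in iECDCs than in pECDCs (log2 0.52, SE 0.154, edgeR adjusted p = 0.0483). This call held in 5 of 13 alternative settings: it was lost when any pECDC library or iECDC replicate 1 or 2 was left out (edgeR adjusted p up to 0.16), and without iECDC replicate 3 the log2 difference was 0.71 (edgeR adjusted p = 8.99e-08). Against iECDCs, SB431542 libraries were 2.24-fold lower (log2 -1.16, SE 0.207, edgeR adjusted p = 0.00626), a call kept in all 14 alternative settings, and against pECDCs they were 1.55-fold lower (log2 -0.63, SE 0.132, edgeR adjusted p = 0.0111). The latter call was lost without pECDC replicate 2 or 3 (edgeR adjusted p up to 0.0508).

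Plat, the tissue-type activator (ENSMUSG00000031538, chr8:22757727-22782844, plus strand), ran the other way. It measured 9.56, 9.16 and 9.38 FPKM in pECDCs, 6.98, 6.48 and 6.70 in iECDCs and 21.9, 14.7 and 22.1 in SB431542 libraries. The 3 groups did not overlap, iECDCs being lowest, and SB431542 replicate 2 was the lowest of its group. Plat fell in iECDCs by 0.49 on the log2 scale (SE 0.064, edgeR adjusted p = 0.00122), a call lost only in the fit of all 9 libraries (edgeR adjusted p = 0.0789). SB431542 libraries had 2.94-fold more Plat RNA than iECDCs (log2 1.55, SE 0.167, edgeR adjusted p = 0.00109) and 2.10-fold more than pECDCs (log2 1.07, SE 0.159, edgeR adjusted p = 0.00327). Both SB431542 calls were kept in every alternative setting.

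The ratio of the activators within a library follows from these values and is given as a description. Plau stood at 1.96, 2.14 and 2.07 times Plat per length in pECDCs and at 4.64, 4.78 and 3.01 times in iECDCs. In SB431542 libraries the ratio was 0.494, 1.03 and 0.501. Per annotated exon length, Plat RNA was thus above Plau RNA in replicates 1 and 3 and about level with it in replicate 2.

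Plaur encodes the membrane-anchored urokinase receptor (ENSMUSG00000046223, chr7:24462484-24475968, plus strand). Its level was 51.6, 49.9 and 50.1 FPKM in pECDCs, 82.3, 79.2 and 63.3 in iECDCs and 16.7, 27.8 and 17.8 in SB431542 libraries. The groups did not overlap; the same libraries as for Plau, iECDC replicate 3 and SB431542 replicate 2, lay nearest to the pECDC level. Plaur was 1.47-fold higher in iECDCs than in pECDCs (log2 0.56, SE 0.097, edgeR adjusted p = 0.00538), a call lost only in the fit of all 9 libraries (edgeR adjusted p = 0.115). SB431542 libraries were 3.58-fold below iECDCs (log2 -1.84, SE 0.209, edgeR adjusted p = 0.00123) and 2.42-fold below pECDCs (log2 -1.27, SE 0.183, edgeR adjusted p = 0.0029).

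Serpinb2, also called plasminogen activator inhibitor 2, blocks urokinase and is largely kept inside the cell (ENSMUSG00000062345, chr1:107511423-107535478, plus strand). It measured 18.8, 18.4 and 18.4 FPKM in pECDCs, 7.21, 6.99 and 6.37 in iECDCs and 12.1, 28.8 and 15.4 in SB431542 libraries. iECDCs were the lowest group, and the SB431542 libraries straddled the pECDC level, with replicate 2 above it and the other 2 below. Serpinb2 was 2.72-fold lower in iECDCs than in pECDCs (log2 -1.45, SE 0.077, edgeR adjusted p = 6.15e-06) in all 13 alternative settings as well. SB431542 libraries were 2.75-fold above iECDCs (log2 1.46, SE 0.293, edgeR adjusted p = 0.00949), and 1.01 on the log2 scale without replicate 2 (edgeR adjusted p = 0.000276). Against pECDCs the log2 difference was 0.02 (SE 0.287, edgeR adjusted p = 0.956), but without SB431542 replicate 2 it was -0.42 (edgeR adjusted p = 0.000161), a direction and a call that 1 library decides. Its locus overlaps that of Serpinb10 on the same strand, which had 0 counts in 8 libraries and 2 in SB431542 replicate 2.

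Serpine2, protease nexin 1, blocks thrombin as well as both activators (ENSMUSG00000026249, chr1:79794197-79861180, minus strand). It was the lowest of the 10 in every group, at 2.76, 3.24 and 3.11 FPKM in pECDCs, 3.43, 2.73 and 3.13 in iECDCs and 1.20, 1.47 and 1.16 in SB431542 libraries. pECDC and iECDC libraries overlapped (log2 0.02, SE 0.105, edgeR adjusted p = 0.927), and all SB431542 libraries lay below both. The SB431542 level was 2.41-fold below iECDCs (log2 -1.27, SE 0.151, edgeR adjusted p = 0.00147) and 2.36-fold below pECDCs (log2 -1.24, SE 0.122, edgeR adjusted p = 0.000809), a call in every alternative setting of both.

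F3 encodes tissue factor, the membrane protein that starts coagulation (ENSMUSG00000028128, chr3:121723537-121735048, plus strand). Its level was 83.1, 81.6 and 84.1 FPKM in pECDCs, 103, 96.2 and 46.5 in iECDCs and 35.3, 38.2 and 39.3 in SB431542 libraries. iECDC replicate 3 had an F3 level far under that of the other iECDC libraries and lay below the pECDC libraries, which the other 2 exceeded. The difference between iECDCs and pECDCs was thus -0.03 with that library (SE 0.240, edgeR adjusted p = 0.955) and 0.26 without it (SE 0.0426, edgeR adjusted p = 0.00027). F3 was 2.17-fold lower in SB431542 libraries than in iECDCs (log2 -1.12, SE 0.268, edgeR adjusted p = 0.0178), without iECDC replicate 3 by -1.41 on the log2 scale (edgeR adjusted p = 0.00248), and the call was lost without iECDC replicate 1 or 2 or SB431542 replicate 1 (edgeR adjusted p up to 0.0722). Against pECDCs it was 2.19-fold lower (log2 -1.13, SE 0.070, edgeR adjusted p = 0.000138) in every setting tried.

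Tfpi, the main inhibitor of the tissue factor and factor VII complex (ENSMUSG00000027082, chr2:84432855-84476775, minus strand), moved less. It measured 19.7, 18.7 and 19.3 FPKM in pECDCs, 20.3, 20.4 and 17.7 in iECDCs and 14.8, 13.3 and 16.2 in SB431542 libraries. The SB431542 libraries lay below all others, and the other 2 groups overlapped (log2 0.01, SE 0.072, edgeR adjusted p = 0.962). Tfpi was 1.31-fold lower in SB431542 libraries than in iECDCs (log2 -0.39, SE 0.117, edgeR adjusted p = 0.0385) and 1.29-fold lower than in pECDCs (log2 -0.37, SE 0.088, edgeR adjusted p = 0.0175). The first call was lost without iECDC replicate 1 or 2 or SB431542 replicate 1 or 3 (edgeR adjusted p up to 0.127), and the second without any 1 pECDC library or SB431542 replicate 1 (edgeR adjusted p up to 0.0742).

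Tfpi2, a relative of Tfpi that blocks plasmin and other proteases of the matrix (ENSMUSG00000029664, chr6:3962595-3988919, minus strand), showed the largest difference of the 10 in SB431542 libraries. Its level was 8.22, 7.19 and 8.04 FPKM in pECDCs, 13.4, 10.7 and 8.42 in iECDCs and 2.25, 2.26 and 2.03 in SB431542 libraries. The SB431542 libraries lay close together (SD 0.132 FPKM, n = 3), replicate 2 included. Tfpi2 was 4.93-fold lower in them than in iECDCs (log2 -2.30, SE 0.205, edgeR adjusted p = 0.000591) and 3.56-fold lower than in pECDCs (log2 -1.83, SE 0.120, edgeR adjusted p = 0.000177), in every setting tried. iECDC libraries all lay above pECDC libraries, yet the difference was not called (log2 0.46, SE 0.158, edgeR adjusted p = 0.0793), and without iECDC replicate 3 it was (log2 0.62, edgeR adjusted p = 0.000307).

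Thbd encodes thrombomodulin in a single exon (ENSMUSG00000074743, chr2:148404466-148408188, minus strand). It measured 102, 101 and 101 FPKM in pECDCs, 170, 166 and 81.9 in iECDCs and 34.7, 102 and 37.1 in SB431542 libraries. In each of the last 2 groups 1 library went its own way: iECDC replicate 3 fell below pECDCs, and SB431542 replicate 2 equalled them. With all libraries of the compared groups, the filter on low counts and no block for the replicate number, edgeR called Thbd in no comparison. The log2 differences were 0.45 for iECDC against pECDC (SE 0.228, edgeR adjusted p = 0.218), -1.26 for SB431542 against iECDC (SE 0.446, edgeR adjusted p = 0.0643) and -0.80 for SB431542 against pECDC (SE 0.392, edgeR adjusted p = 0.153). Without the filter the first 2 were called (log2 0.43 and -1.26, edgeR adjusted p = 0.00019 and 6.15e-05). The second was also called in the fit of all 9 libraries (edgeR adjusted p = 0.0279) and with the replicate block (log2 -1.36, edgeR adjusted p = 0.0124). Without iECDC replicate 3 the first was 0.72 (edgeR adjusted p = 8.36e-10). Without SB431542 replicate 2 the second was -1.95 (edgeR adjusted p = 0.00049) and the third -1.49 (edgeR adjusted p = 4.86e-15).

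F2r, the receptor by which thrombin signals to cells (ENSMUSG00000048376, chr13:95601803-95618487, minus strand), had the highest mean of the 10 in each group. Its level was 179, 177 and 176 FPKM in pECDCs, 153, 165 and 170 in iECDCs and 161, 142 and 158 in SB431542 libraries. SB431542 and iECDC libraries overlapped, and both groups lay below the pECDC libraries. With all libraries of the compared groups, edgeR called F2r in no comparison: the log2 difference was -0.14 for iECDC against pECDC (SE 0.064, edgeR adjusted p = 0.171), -0.07 for SB431542 against iECDC (SE 0.116, edgeR adjusted p = 0.655) and -0.20 for SB431542 against pECDC (SE 0.081, edgeR adjusted p = 0.0928). Leaving out iECDC replicate 3 brought a call in the first (log2 -0.17, edgeR adjusted p = 0.00507), and leaving out SB431542 replicate 2 brought one in the third (log2 -0.15, edgeR adjusted p = 0.00435). DESeq2 called the third with all libraries (log2 -0.21, DESeq2 adjusted p = 0.0455).

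**Figure D3:**
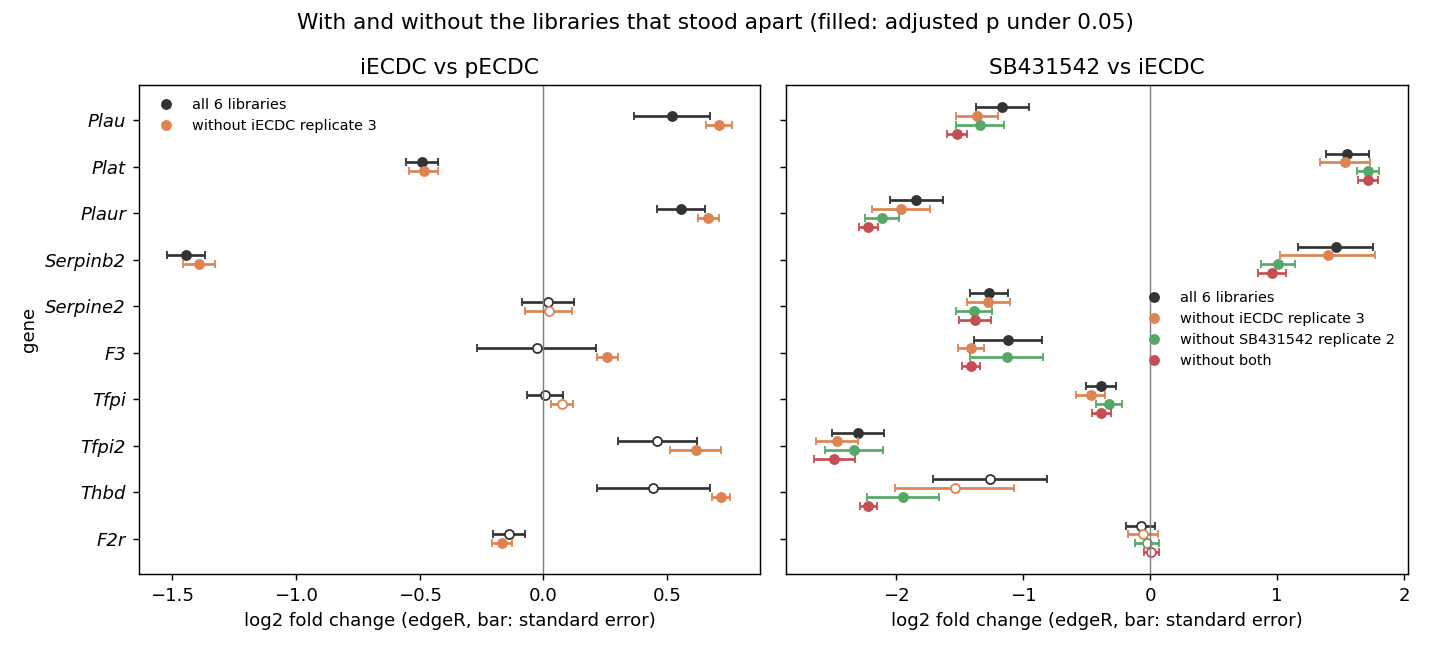
log2 fold change of counts (horizontal axis, bar: standard error) for the 10 genes with all 6 libraries and without the libraries that stood apart, for iECDC against pECDC (left) and SB431542 against iECDC (right); filled points have an adjusted p under 0.05. Thbd moves from -1.26 to -2.22 on the right when both libraries are left out, and F3 from -0.03 to 0.26 on the left without iECDC replicate 3.

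Counts over the 10 genes moved with these libraries, and so did the share of all tested genes that was called. Without iECDC replicate 3, 8 of the 10 were called between iECDCs and pECDCs in place of 4, while the share over all genes was 31.7% in place of 16.4%. Between SB431542 and iECDC libraries 8 were called with all libraries. Without SB431542 replicate 2 it was 9, beside 50.2% of all genes, and without both libraries 9, beside 64.5%. Between SB431542 libraries and pECDCs, 10 were called without SB431542 replicate 2 in place of 7, beside 64.1% of all genes in place of 34.8%.

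Levels ranked alike in pECDCs and iECDCs at the top: F2r, Thbd, F3 and Plaur, in that order of mean FPKM. In pECDCs the ranges of these 4 did not touch, while Plau, Tfpi and Serpinb2 (18.4 to 19.7 FPKM) could not be ordered beyond their spread. Plat, Tfpi2 and Serpine2 followed without overlap. In iECDCs the range of Thbd overlapped those of F2r, F3 and Plaur, and there were overlaps of F3 and Plaur, of Plau and Tfpi and of Serpinb2 and Plat. In SB431542 libraries Plat came next after these 4, the ranges of Thbd and F3 overlapped, and the ranges of Plaur, Plat, Serpinb2, Tfpi and Plau formed a chain of overlaps, between 10.8 and 28.8 FPKM.

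**Figure D4:**
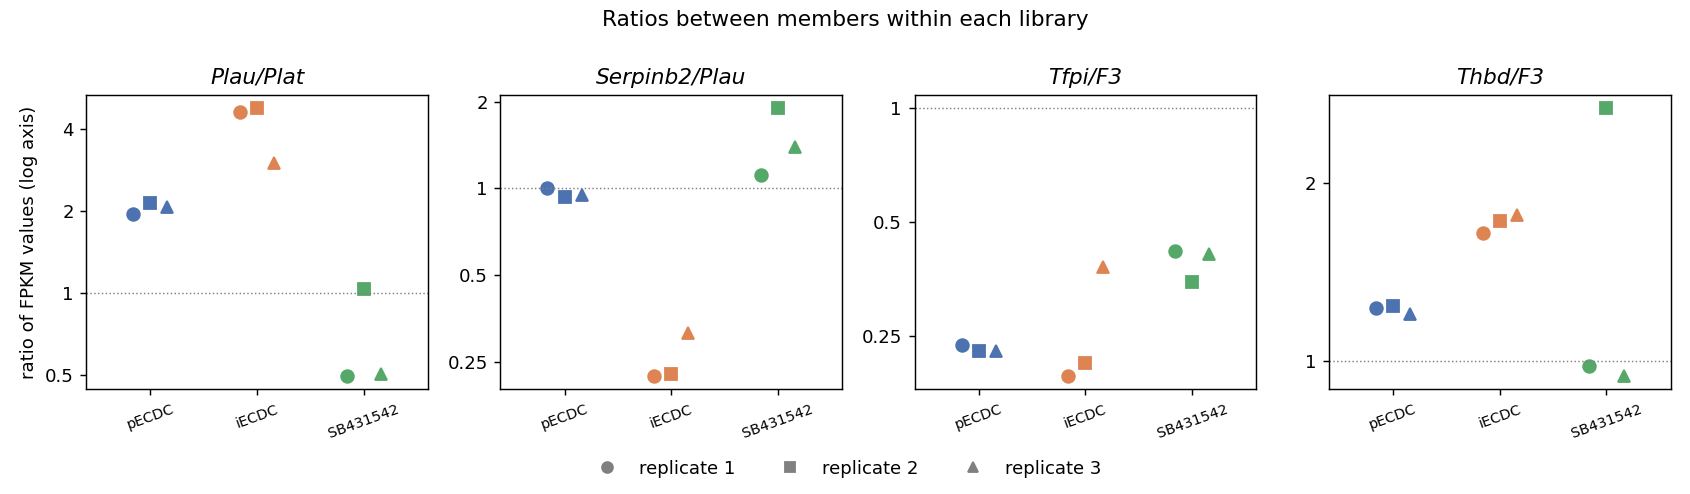
Ratios of FPKM values between pairs of the genes (log axes; dotted line at 1) in each of the 9 libraries; marker shapes are replicates 1 to 3. Plau/Plat is 3.01 to 4.78 in iECDC libraries and 0.494 to 1.03 in SB431542 libraries, and Tfpi/F3 stays under 0.5 in all 9.

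Pairs of activator and inhibitor, or of initiator and brake, were set against each other within each library. The range of the Serpinb2 to Plau ratio did not overlap between groups. For Tfpi to F3 the range of iECDCs overlapped those of both other groups. For Thbd to F3 the range of SB431542 libraries did so. Serpinb2 was 1.01, 0.936 and 0.949 times Plau in pECDCs, 0.223, 0.226 and 0.315 times in iECDCs and 1.11, 1.90 and 1.39 times in SB431542 libraries, so iECDCs had the least Serpinb2 RNA for their urokinase RNA. Tfpi stood at 0.237, 0.229 and 0.229 times F3 in pECDCs and at 0.420, 0.348 and 0.412 times in SB431542 libraries. In iECDCs that ratio was 0.197 and 0.213 in replicates 1 and 2 and 0.382 in replicate 3, which had the low F3 level. Thbd was 1.65, 1.73 and 1.76 times F3 in iECDCs, replicate 3 included, so there both genes were low together. In SB431542 libraries it was 0.981, 2.67 and 0.945 times F3, replicate 2 being alone in its high Thbd level. These ratios are descriptions and carry no test.

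The start regions of the genes were read for short motifs in the RefSeq promoter table (GRCm38.p6, 250 bases before to 50 after each start), which held 11 promoters of 7 of the 10 genes, some with overlapping windows. Plau, Plat and Thbd were not among them. Both strands were searched. For AP-1, a factor family that acts downstream of growth signals, the letters were TGANTCA, which stood in 6 of these 11 promoters, from 5 of the 7 genes, and in 7.81% of all 32851 promoters of the table. With C or G at the free position they stood in 3 of the 11 and in 5.2% of all promoters. For SMAD, the factors of the TGF-β pathway, CAGACA stood in 2 of the 11 and in 21.04% of all promoters. These 2 are overlapping windows of Tfpi2 that share the match. It lay at 42 from the more upstream start (chr6:3988936) and at -37 from the next (chr6:3988858). The TATA box letters TATAAA stood in 4 of the 11, from 3 of the 7 genes, and in 13.62% of all promoters. The 2 Serpinb2 windows overlap and share 1 AP-1 match and 1 TATA box match, so each of these matches is counted in both windows. The E-box CACGTG stood in 1 of the 11 (Tfpi) and in 7.15% of all promoters. The NF-kB letters GGGNNTTCC stood in none of the 11 and in 5.82% of all promoters. The motifs did not overlap each other in these promoters, apart from the AP-1 pattern that contains its stricter form. A match is a description of letters and not a binding site. The 5 genes with AP-1 letters are shown, since they include members that were lower (Plaur, F3, Tfpi2) and higher (Serpinb2) in SB431542 libraries than in iECDCs, and 1 with no called difference (F2r); capitals mark the motif letters.
Plaur, plus strand, chr7:24462233-24462532, AP-1 at -69: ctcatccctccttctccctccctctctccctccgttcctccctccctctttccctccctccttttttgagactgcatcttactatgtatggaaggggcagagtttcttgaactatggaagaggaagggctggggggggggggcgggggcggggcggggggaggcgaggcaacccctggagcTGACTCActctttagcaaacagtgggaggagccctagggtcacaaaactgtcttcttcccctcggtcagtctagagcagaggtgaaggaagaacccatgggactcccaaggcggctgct
F3, plus strand, chr3:121723287-121723586, AP-1 at -146 and -135, TATA box letters on the opposite strand at 44 from the start: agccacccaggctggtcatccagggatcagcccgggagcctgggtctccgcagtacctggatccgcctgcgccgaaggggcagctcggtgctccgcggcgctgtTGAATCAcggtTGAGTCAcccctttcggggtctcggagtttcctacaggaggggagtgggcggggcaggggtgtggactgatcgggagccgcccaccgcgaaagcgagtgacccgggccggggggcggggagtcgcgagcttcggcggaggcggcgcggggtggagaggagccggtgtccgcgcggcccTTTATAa
Serpinb2, plus strand, chr1:107511173-107511472, AP-1 at -94 and TATA box at -29: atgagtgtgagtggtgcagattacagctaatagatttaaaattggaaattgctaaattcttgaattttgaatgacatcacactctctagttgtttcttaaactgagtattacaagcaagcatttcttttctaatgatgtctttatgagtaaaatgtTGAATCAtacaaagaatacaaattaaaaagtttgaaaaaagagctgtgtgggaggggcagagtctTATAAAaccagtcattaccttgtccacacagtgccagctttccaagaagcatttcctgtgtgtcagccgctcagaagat
Tfpi2, start site inside the annotated gene, minus strand, chr6:3968326-3968625, AP-1 at -77: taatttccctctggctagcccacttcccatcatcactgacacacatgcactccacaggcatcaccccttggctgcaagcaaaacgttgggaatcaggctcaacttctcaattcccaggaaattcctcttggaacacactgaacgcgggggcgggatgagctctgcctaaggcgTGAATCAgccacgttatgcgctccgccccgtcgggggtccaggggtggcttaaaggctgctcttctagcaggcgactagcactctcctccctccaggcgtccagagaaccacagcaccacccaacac
F2r, minus strand, chr13:95618417-95618716, AP-1 at -204: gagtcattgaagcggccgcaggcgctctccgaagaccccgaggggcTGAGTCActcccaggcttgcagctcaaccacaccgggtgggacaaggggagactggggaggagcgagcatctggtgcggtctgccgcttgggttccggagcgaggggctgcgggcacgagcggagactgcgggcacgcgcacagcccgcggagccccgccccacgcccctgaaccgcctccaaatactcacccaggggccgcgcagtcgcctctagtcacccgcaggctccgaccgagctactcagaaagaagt
Plaur, F3 and F2r carry the stricter AP-1 letters, and Serpinb2, Tfpi2 and the outer F3 match carry TGAATCA. These promoters differ in base makeup: GC made up 35.3% of the Serpinb2 window and 70.3% of the F3 window.

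Other genes of the plasminogen system were taken from a written list of 15, of which 9 were tested and 4 (Plg, the gene of plasminogen itself, Vtn, A2m and Cpb2) had at most 3 counts in every library. Against pECDCs, iECDCs were higher in 3 of the 9 tested (S100a10, Eno1 and Serpinb6a) and lower in 3 (Lrp1, Mrc2 and Serping1). SB431542 libraries were higher than iECDCs in 1 (Serping1) and lower in 2 (Anxa2 and Serpini1), and compared with pECDCs they were higher in 2 (S100a10 and Serping1) and lower in 3 (Plgrkt, Mrc2 and Serpini1). Anxa2, a plasminogen and Plat receptor at the surface, was lower in SB431542 libraries than in iECDCs (log2 -0.63, edgeR adjusted p = 0.0283), and its partner S100a10 was not called there (log2 -0.02, edgeR adjusted p = 0.915).

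Of 20 coagulation factor and cofactor genes, 6 were tested, and 12 had at most 3 counts in every library, among them prothrombin (F2), F7, F9, F10 and the fibrinogen chains. Of the 6, none rose in a comparison, and 1, 1 and 3 fell in iECDC against pECDC, SB431542 against iECDC and SB431542 against pECDC; these (Lman1, Mcfd2 and Vkorc1) serve the transport or vitamin K chemistry of coagulation factors. Of 9 genes of the anticoagulant pathway, 5 were tested in the first 2 comparisons and 4 in the last. Procr, the endothelial protein C receptor that works beside thrombomodulin, measured 26.8, 27.8 and 27.9 FPKM in pECDCs, 42.5, 38.7 and 22.3 in iECDCs and 4.91, 12.03 and 6.65 in SB431542 libraries. Like Thbd, it was lowest among iECDCs in replicate 3 and highest among SB431542 libraries in replicate 2, and unlike Thbd it was called against iECDCs (log2 -2.12, edgeR adjusted p = 0.00474). Pros1, the cofactor protein S, and its relative Gas6 were higher in SB431542 libraries than in iECDCs (log2 1.07 and 2.29, edgeR adjusted p = 0.00378 and 0.0033). Serpind1, heparin cofactor II, had 17, 14 and 12 counts in iECDCs and at most 4 in any other library; it passed the filter through iECDCs alone, so no test is given. Of the 3 other protease-activated receptor genes only F2rl1 was tested, at 0.162 to 0.562 FPKM, and no comparison called it.

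Among 5 matrix proteases that work with plasmin, 3 were tested, and Mmp3, stromelysin 1, differed most. It measured 8.22, 10.2 and 10.7 FPKM in pECDCs, 0.880, 0.844 and 0.434 in iECDCs and 315, 48.4 and 322 in SB431542 libraries. Mmp2 was higher in SB431542 libraries than in iECDCs too (log2 0.77, edgeR adjusted p = 0.0225), and Mmp14 was not called (log2 0.24, edgeR adjusted p = 0.396). Both Mmp2 and Mmp3 were lowest of the SB431542 group in replicate 2. Of 6 tested TGF-β response genes, 4 (Smad7, Skil, Ctgf and Acta2) were lower in SB431542 libraries than in iECDCs and 1 (Tgfbi) was higher. For each of those 4 replicate 2 had the highest SB431542 level, with Smad7 at 8.16, 14.0 and 7.49 FPKM and Ctgf at 27.4, 70.9 and 30.7. Among the 10 genes, replicate 2 lay nearest to iECDCs of the SB431542 libraries for Thbd, Plau, Plaur, Plat and Serpine2. It lay farthest from iECDCs for Serpinb2 (28.8 FPKM against 12.1 and 15.4), Tfpi (13.3 against 14.8 and 16.2) and F2r (142 against 161 and 158). For F3 it lay between the other SB431542 libraries, and for Tfpi2 it lay close to them. Whether a weaker response to the inhibitor had a part in any of these values was not tested.

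**Figure D5:**
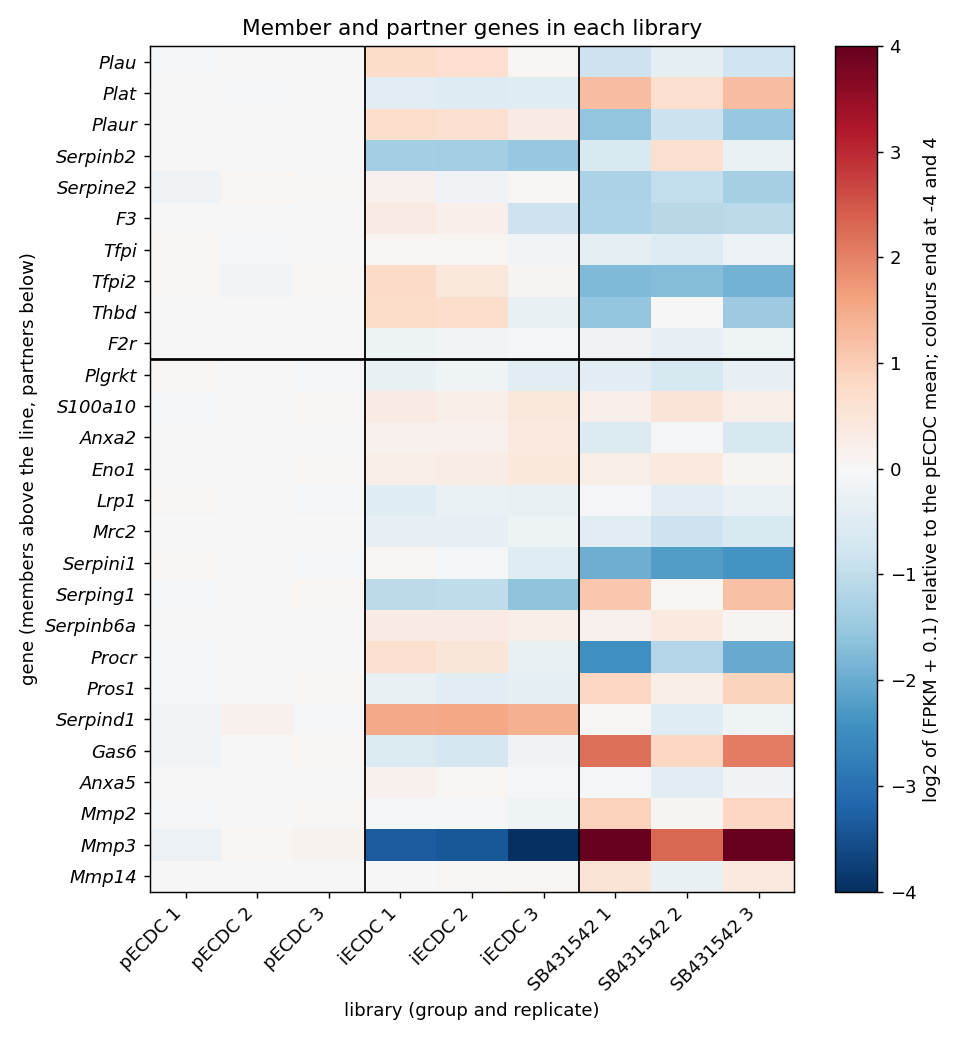
log2 of FPKM + 0.1 relative to the pECDC mean (colour, ending at -4 and 4) for the 10 genes above the line and the 17 tested genes of the plasminogen, anticoagulant and matrix protease lists below it, in each of the 9 libraries. SB431542 replicate 2 is paler than the other SB431542 libraries for Procr, Plaur, Thbd, Plat and Gas6, and iECDC replicate 3 differs from the other iECDC libraries for F3, Thbd and Procr.

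For each of the 10 genes the genes with the most similar pattern were sought by Pearson's r of log2 CPM over the 9 libraries among 11857 genes. The closest were Mllt11 for Plaur (r = 0.998), Casp12 for Plat (0.997), Hnrnpa2b1 for F3 (0.994) and Rasa4 for Tfpi2 (0.993). Plau ran closest with Hmox1 (0.991), Thbd with Nasp (0.989), Serpine2 with Dnajc25 (0.989) and Tfpi with Ell2 (0.988). Lower maxima were found for F2r (Mn1, 0.974) and Serpinb2 (Pth1r, 0.931), and all these libraries fall in 3 groups, which alone gives many genes a high r.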

How the data were processed

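RNA of 9 libraries was sequenced, 3 each of pECDCs, iECDCs and SB431542-treated cells, and grouped by their labels. The authors deposited raw read counts per gene, and FPKM values, which are these counts divided by gene length and a library constant. The table also holds group means and the authors' own fold changes and p-values, which were not used. Per the labels, TopHat2 2.0.9, Bowtie2 2.0.6 and mm9 were used, yet the start and end of 53499 of 54409 genes matched by identifier, all 10 members included, equal those of GRCm38 gene models. The counting program and strand are not given in the sources used here, and the labels and methods name different library kits.

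edgeR 4.0.16 (R 4.3.3) was run on the counts: TMM normalization, filterByExpr (minimum count 10, minimum total 15), the two-sided quasi-likelihood test, Benjamini-Hochberg adjustment over all tested genes, each fit holding the 6 libraries of its 2 groups. The procedure was tested on simulated data. Total counts were 16568306 to 23951392 per library. A gene with at most 3 counts in a library was taken to be at the floor, which covers counting error only. Alternatives were DESeq2 1.42.0, DESeq2-type size factors in edgeR (RLE), no filter, all 9 libraries in the fit, the replicate block, limma 3.58.1 on log2(FPKM + 1) and log2(FPKM + 0.1), and each library left out in turn. One was added after the data were seen: SB431542 against iECDC without iECDC replicate 3 and SB431542 replicate 2 together. One gene of the pathway lists is not reported here. The members and gene lists were chosen with earlier results of these data known. By rule, the text names all 10 members, genes of the pathway lists that pass a comparison, and the genes most alike in pattern. The rule also covered list genes below the filter, of which only some are named. Marker genes, Mmp14 and F2rl1 were named after their values were seen.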

Additional observations from a re-analysis of the deposited data

How the results depend on the processing

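The number of the 10 genes called between iECDCs and pECDCs was 4 and depended on the setting: it was 1 with all 9 libraries in the fit, and leaving out 1 library gave 3 to 8, with 8 without iECDC replicate 3. Over all tested genes the share called in the same alternatives ran from 4.72% to 31.7%. Between SB431542 and iECDC libraries 8 were called and 6 to 9 in the alternatives, and between SB431542 libraries and pECDCs 7 and 5 to 10, beside shares over all tested genes of 12.3% to 64.5% and 17.1% to 64.1%. Of the single-gene values in alternative settings, 350 kept direction and side of the threshold, 24 lost the call and 14 gained it with the same sign, and 12 changed sign, 2 of them with a call. Sign changes for iECDC against pECDC were Tfpi (log2 -0.01 without the filter, and -0.03 to 0.07 with 1 library left out), Serpine2 (-0.06 at the lowest with 1 library left out, and -0.04 without pECDC replicate 1) and F3 (-0.23 to 0.26 with 1 library left out, 0.26 being without iECDC replicate 3). For SB431542 against iECDC it was F2r (0.01 without both libraries that stood apart). For SB431542 against pECDC it was Serpinb2 (-0.07 with the replicate block, -0.08 with limma on log2(FPKM + 1) and log2(FPKM + 0.1), and -0.42 without SB431542 replicate 2). The cause was not tested.

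Deviations from the group mean correlated at -0.192 to 0.034 between same-numbered libraries of 2 groups and at -0.094 to 0.181 between differently numbered ones. The labels do not state a pairing, and with 3 libraries per group these values cannot decide whether the numbers pair them. With the replicate block 4, 8 and 7 of the 10 genes were called in the 3 comparisons, but for SB431542 against iECDC Thbd gained and Tfpi lost its call.

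Depth did not limit the members, the lowest of which had 64 counts (Tfpi2 in SB431542 replicate 3), whereas for Plg, F2, F7, F9 and F10 counts of 0 to 3 leave low expression undetectable at this depth.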
